A study of Homo sapiens with 6 samples.

Results

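KEAP1, NFE2L2 (the gene of the transcription factor NRF2), SQSTM1 and 6 antioxidant target genes of NRF2 (NQO1, HMOX1, TXNRD1, GCLM, GCLC and SRXN1) were examined in MDA-MB 231 cells. The 9 genes were found by their symbols among the 24462 gene symbols of the count data, each on a single line. They were named by their known roles, but with earlier results of these data known. MDA-MB 231 is a triple-negative breast cancer cell line of mesenchymal character. Cells were collected 48 h after transfection with a Lipofectamine reagent, with 2 libraries in each of 3 groups. The first group received the NC mimic, a non-specific control miRNA whose dose was not given. The second group received the miR-200a mimic at 100 nM. The third received 100 nM of the miR-200a mimic together with 30 ng of a pcDNA3.1 plasmid that carries the coding region of ELK3 and not its own 3′UTR. Its vector is named in 2 ways, with a Flag tag or as Hygro(+). Whether the other groups received an empty vector was not given. The counts of ELK3 do not check the label of this last group, miR-200a plus ELK3, so its samples are given as the plasmid-labelled libraries. All 6 libraries were made with a QuantSeq 3′ kit, which reads polyadenylated RNA near its 3′ end.

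KEAP1 is the sensor of the pathway. In unstressed cells it holds NRF2 in a cullin ubiquitin ligase and leads it to degradation, and electrophiles or oxidants that modify KEAP1 let NRF2 build up. NRF2 then joins small Maf proteins on antioxidant response elements and switches on genes for glutathione and thioredoxin metabolism, quinone reduction and heme breakdown. SQSTM1 (p62), an adaptor of selective autophagy, binds KEAP1 and is itself a target of NRF2. KEAP1 is a reported target of miR-200a, which can raise NRF2 activity in breast cancer cells. In most of these steps NRF2 is controlled as a protein, and RNA levels of NFE2L2 do not measure that.

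The mature miRNA and its matches in the 9 genes are shown because KEAP1 was included as a target of miR-200a. miR-200a-3p, the arm used in the mimic, is encoded at chr1:1167916-1167937 on the plus strand, and miR-141-3p, at chr12:6964155-6964176 on the plus strand, has the same seed (RefSeq sequences, GRCh38.p14). Capitals mark the seed, bases 2 to 8.
hsa-miR-200a-3p: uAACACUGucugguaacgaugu
hsa-miR-141-3p: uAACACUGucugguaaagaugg

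A match to the seed, CAGTGTT, was searched on the transcript strand of the 3′UTR of 1 transcript per gene (GENCODE 29, GRCh38). It was found in KEAP1 and SQSTM1, 2 of 9 genes (22.2%), and in 2195 of 11255 tested genes with an annotated 3′UTR (19.5%). In KEAP1 the match was followed by A, which makes it an 8mer, a form present in 583 tested genes (5.18%). Each sequence is written 5′ to 3′ on the strand of the gene, and capitals mark the match.
KEAP1 3′UTR: ccaggatgcctCAGTGTTAaaatgacatct
SQSTM1 3′UTR: gctggggaggcCAGTGTTgtgggcttcctg
The KEAP1 stretch is chr19:10486503-10486532 on the minus strand. Its 8mer lies in exon 6 of 6, at nucleotides 131 to 138 of a 3′UTR of 532, and 394 nucleotides before the end of the transcript. The SQSTM1 stretch is chr5:179837038-179837067 on the plus strand. Its 7-base match lies in exon 8 of 8, at nucleotides 456 to 462 of a 3′UTR of 1485. The 3′UTRs of NFE2L2, NQO1, HMOX1, TXNRD1, GCLM, GCLC and SRXN1 held no such match. A match of letters is a description and not a measured site of binding.

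**Figure D1:**
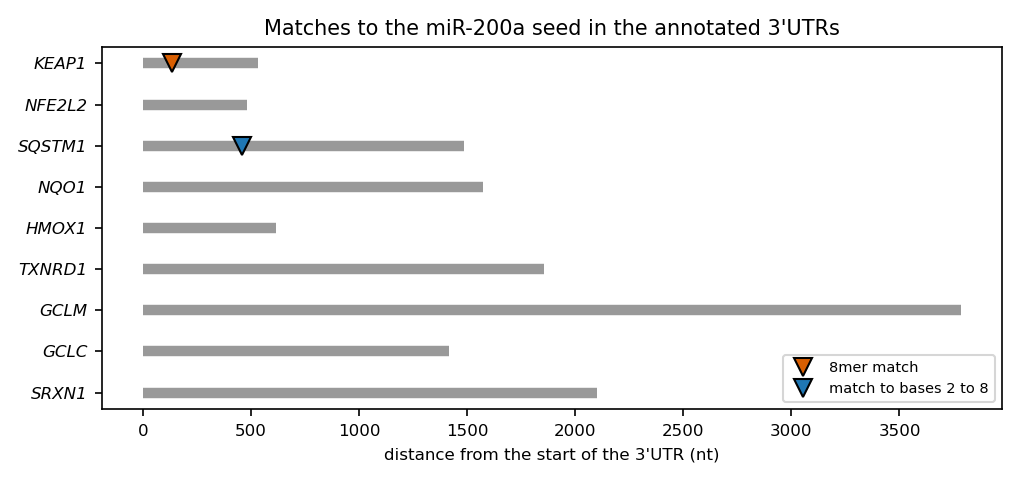
Annotated 3′UTR of each of the 9 genes (grey bar, length in nucleotides from the first base after the stop codon), with triangles at matches to the miR-200a seed. KEAP1 has an 8mer at nucleotides 131 to 138 and SQSTM1 a match to bases 2 to 8 at nucleotides 456 to 462, and the other 7 bars have no triangle.

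The submitters' notes name hg19 for the reads, so these positions, and those given with each gene, come from GENCODE 29 on GRCh38 and not from the counted data. The core of the antioxidant response element, TGACNNNGC, was searched on both strands from 250 bases before to 50 after each start site in RefSeq (GRCh38.p14). It was present in 4687 of 35116 promoters (13.3%) and in 4 of the 13 promoters listed for the 9 genes (30.8%). These were both promoters of TXNRD1, that of GCLM and 1 of 2 promoters of KEAP1. The match of GCLM, 1 of TXNRD1 and 1 of KEAP1 are shown on the strand that reads TGAC, with the core in capitals. The stretches shown are chr1:93909448-93909472, chr12:104215672-104215696 and chr19:10502786-10502810. Along the gene, their cores begin at -34, -99 and -31 from the start site. Those of GCLM and KEAP1 read TGAC on the strand opposite the gene, so -34 and -31 are the last base in capitals.
GCLM promoter: gaagacaaTGACTAAGCagaaatcg
TXNRD1 promoter: acgggctaTGACTTCGCtgttgtca
KEAP1 promoter: ggtcaccaTGACTAAGCagagccgg
The promoters listed for NFE2L2, SQSTM1, NQO1, GCLC and SRXN1 held no match in this window. HMOX1 was not searched.

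Library totals ranged from 3055915 to 4868004 counts, so that 3 counts, taken as the smallest amount that can be told from 0, were 0.616 to 0.982 CPM by the unadjusted totals. The CPM of genes are counts divided by library totals that were adjusted with edgeR's TMM factors, and this floor covers counting error alone. Replicate libraries differed by more than sampling noise in each group. The 2 plasmid-labelled libraries stood further apart than the others, with a root mean square difference of 0.56 on the log2 scale, against 0.40 in the NC mimic pair and 0.34 in the miR-200a pair. ESR1 had 0 counts in each library and PGR had 0 or 1. VIM, CD44, AXL and ZEB1 were counted throughout, whereas SPARC, another mesenchymal gene, had 0 to 8 counts. The luminal genes KRT8, KRT18 and EPCAM and the receptor gene ERBB2 were also counted, and EPCAM was 10.9 ± 3.09 CPM with the NC mimic, 28.8 ± 0.383 with miR-200a and 19.5 ± 3.61 in the plasmid-labelled libraries (SD, n = 2). VIM was 1854 and 956 CPM in these last 2 libraries and 2149 to 2463 in the other 4. PTPRC, of leukocytes, had at most 10 counts and PECAM1, of endothelium, at most 13. ELK3, the gene on the plasmid, was 138 and 166 CPM with the NC mimic, 102 and 103 after miR-200a, and 96.2 and 79.2 in the plasmid-labelled libraries. ELK3 was thus not higher in the libraries whose label names the plasmid, and it fell there to 0.579 of the NC mimic level (adjusted p = 0.0117). How 3′ reads of a plasmid RNA without the 3′UTR of ELK3 were counted was not given, so these counts do not check that label.

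KEAP1 rose in the plasmid-labelled libraries, and SQSTM1 fell there, against each of the other groups. HMOX1 fell in these libraries against miR-200a, and TXNRD1 fell against the NC mimic. With the miR-200a mimic alone none of the 9 genes, KEAP1 and SQSTM1 with their seed matches included, passed the test against the NC mimic. The plot of CPM by library shows all the values.

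**Figure D2:**
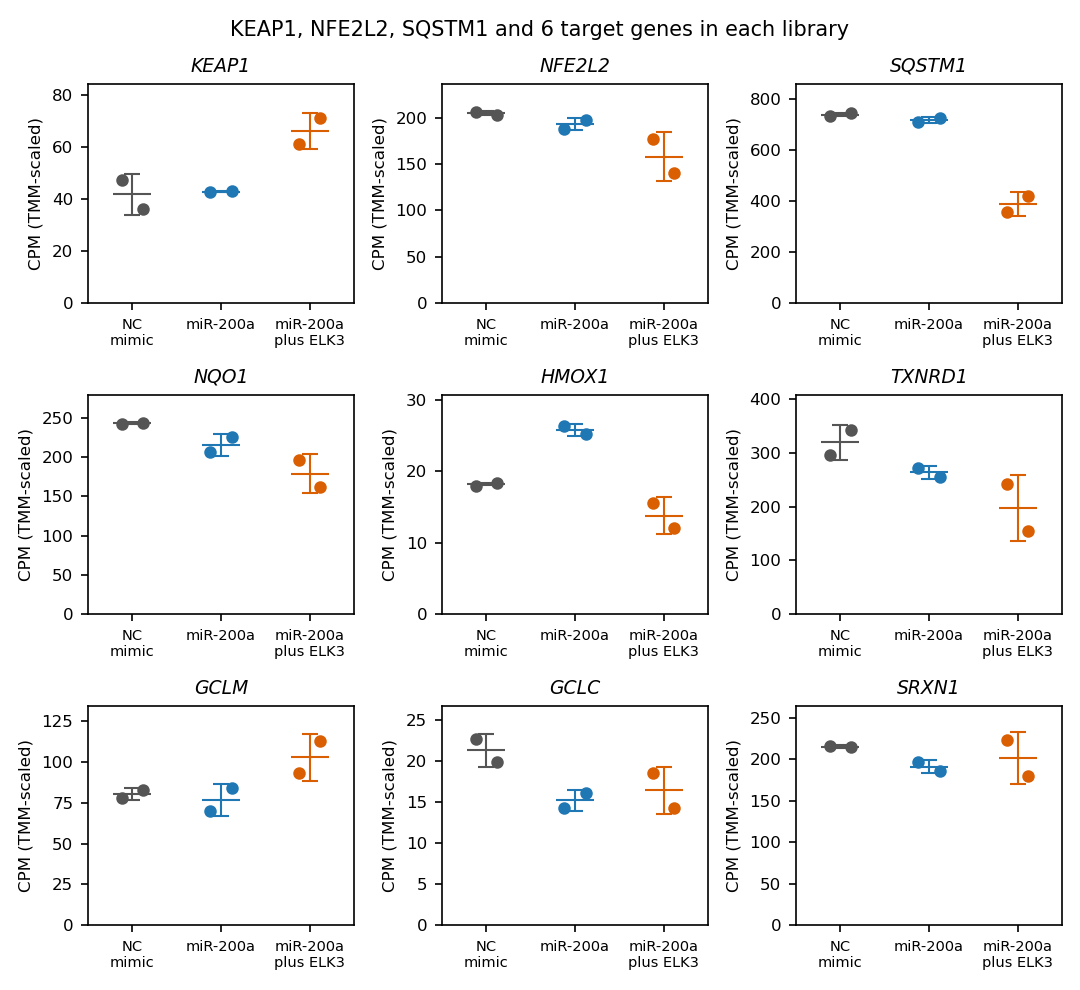
CPM (TMM-scaled, linear axes from 0) of the 9 genes in each of the 6 libraries, where points are libraries, the long bar is the group mean and the whiskers are 1 SD (n = 2). KEAP1 is highest and SQSTM1 lowest in the plasmid-labelled libraries, and HMOX1 is highest with miR-200a.

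The comparisons used edgeR's quasi-likelihood test on the counts of all 6 libraries, with Benjamini-Hochberg adjustment of the p-values over the 12650 genes tested, which include all 9. A gene was called at an adjusted p under 0.05. In miR-200a against the NC mimic, 0 of 9 genes were called, where 34 of all tested genes were (0.269%, made up of 0.213% higher and 0.0553% lower). DESeq2 and limma, which also took the spread from all 3 groups, called 0 of the 9. With only the 2 compared groups, edgeR called 1 of the 9, TXNRD1, and 983 of all genes. In the fit of all 6 libraries, 1 of the 9, HMOX1, had an unadjusted p under 0.05, as had 1169 of all tested genes. In the plasmid-labelled libraries against miR-200a, 3 of 9 were called, 1 higher and 2 lower, beside 12.9% of all tested genes (7.03% higher and 5.91% lower). Set against the NC mimic, the same libraries gave 3 of 9, again 1 higher and 2 lower, beside 12.9% (6.92% higher and 5.95% lower). With 1 library left out, these counts of 3 depended on which library it was, and so did the counts over all tested genes. Each 2 of the 3 comparisons share a group: the first and second the miR-200a libraries, the last pair the plasmid-labelled libraries, and the first and last the NC mimic libraries. The median log2 fold change of the 9 genes was -0.09, -0.27 and -0.38 in the 3 comparisons, against -0.02, 0.02 and 0.01 over all tested genes. No source says that the 2 libraries of a group came from separate cultures, so the p-values measure the spread between these libraries, which may be technical. In bulk RNA, fewer cells that express a gene and less of its RNA per cell cannot be told apart.

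**Figure D3:**
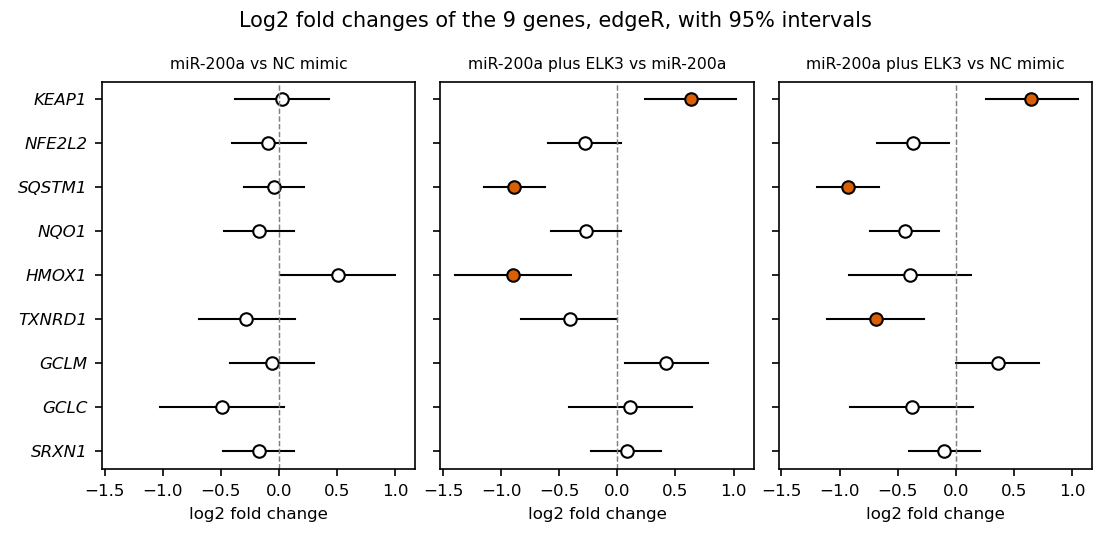
Log2 fold changes of the 9 genes in the 3 comparisons, with 95% intervals from edgeR (horizontal lines) and filled points for an adjusted p under 0.05. The filled points are KEAP1, SQSTM1 and HMOX1 against miR-200a, and KEAP1, SQSTM1 and TXNRD1 against the NC mimic, while no point is filled in miR-200a against the NC mimic.

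KEAP1, the sensor that presents NRF2 for degradation (chr19:10486120-10503741, minus strand), was counted 212 and 111 times with the NC mimic, 205 and 211 times after miR-200a, and 258 and 302 in the plasmid-labelled libraries. Its CPM was 47.2 and 36.2, then 42.6 and 43.0, then 61.1 and 71.0. The miR-200a libraries lay between the 2 NC mimic libraries, and both plasmid-labelled libraries lay above all others. The log2 fold change of KEAP1 with miR-200a relative to the NC mimic was 0.03 (SE 0.18, adjusted p = 0.987), with a 95% interval from -0.38 to 0.43. The interval spans zero, and the sign of the fold change turned to -0.14 without NC mimic replicate 2. In the plasmid-labelled libraries, KEAP1 rose 1.54-fold over miR-200a (log2 fold change 0.63, SE 0.18, adjusted p = 0.043). It rose 1.57-fold over the NC mimic (log2 fold change 0.65, SE 0.18, adjusted p = 0.0391). Both calls were close to the threshold. That against miR-200a was lost without either NC mimic library and without either miR-200a library. That against the NC mimic was lost without NC mimic replicate 1 (adjusted p = 0.116) or 2 (0.295) and without miR-200a replicate 1 (0.1) or 2 (0.101). The rise stayed between 0.48 and 0.87 on the log2 scale with 1 library left out. Without miR-200a plus ELK3 replicate 1 or 2, it was 0.72 or 0.48 against miR-200a and 0.75 or 0.52 against the NC mimic. Fits without a plasmid-labelled library took the spread from the other groups, whose pairs lay closer together, so they do not test the calls. With DESeq2, the adjusted p was 0.0772 against miR-200a and 0.0628 against the NC mimic.

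NFE2L2, which encodes NRF2 itself (chr2:177227595-177392697, minus strand), was 206 and 203 CPM with the NC mimic, 188 and 197 after miR-200a, and 177 and 140 in the plasmid-labelled libraries. The 3 groups did not overlap and stood in that order, but how many of all tested genes do so was not counted. No difference passed the test with all 6 libraries. The log2 fold change of NFE2L2 was -0.09 (95% interval -0.40 to 0.23, adjusted p = 0.922) with miR-200a relative to the NC mimic. It was -0.28 (-0.60 to 0.03, adjusted p = 0.202) in the plasmid-labelled libraries against miR-200a and -0.37 (-0.68 to -0.06, adjusted p = 0.109) against the NC mimic. These values rested on which plasmid-labelled library was used. Without miR-200a plus ELK3 replicate 1 the values against miR-200a and the NC mimic were -0.48 and -0.55, and without replicate 2 they were -0.15 and -0.22.

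SQSTM1, the autophagy adaptor that binds KEAP1 (chr5:179806398-179838078, plus strand), had the smallest p of the 9 genes in both comparisons of the plasmid-labelled libraries. Its reads numbered 3302 and 2282 with the NC mimic, 3419 and 3571 after miR-200a, and 1504 and 1792 in the plasmid-labelled libraries. Its CPM was 735 and 745, then 710 and 728, then 356 and 421. The last 2 libraries were far below the other 4, which lay close together. With miR-200a relative to the NC mimic, the log2 fold change of SQSTM1 was -0.04 (SE 0.12, adjusted p = 0.963), with a 95% interval from -0.30 to 0.22. In the plasmid-labelled libraries, SQSTM1 fell to 0.541 of its level with miR-200a (log2 fold change -0.89, SE 0.12, adjusted p = 0.00293). It fell to 0.525 of the NC mimic level (log2 fold change -0.93, SE 0.12, adjusted p = 0.00178). The first call was lost without miR-200a replicate 1 (adjusted p = 0.0767) or 2 (0.0802), and the second without NC mimic replicate 1 (0.0516) or 2 (0.0518), while the log2 fold changes kept between -1.07 and -0.78. The last exon of SQSTM1 overlaps MRNIP on the other strand, and the strand setting of the counting was not given, so reads of these genes cannot be told apart.

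Among the targets, the NADPH quinone dehydrogenase NQO1 (chr16:69706996-69726951, minus strand) was 242 and 244 CPM with the NC mimic, 206 and 226 after miR-200a, and 197 and 162 in the plasmid-labelled libraries. As for NFE2L2, the groups did not overlap and the NC mimic was highest, and the share of all tested genes with this order was not counted. The log2 fold changes of NQO1 were -0.17 (SE 0.13, adjusted p = 0.766) with miR-200a relative to the NC mimic and -0.27 (SE 0.14, adjusted p = 0.21) in the plasmid-labelled libraries against miR-200a. The second was -0.43 without miR-200a plus ELK3 replicate 1 and -0.16 without replicate 2. Against the NC mimic the log2 fold change was -0.44 (SE 0.14, adjusted p = 0.0589), which did not pass. It passed in 5 of 15 alternative fits. The fit with crossed replicate numbers, added after seeing the data, was among them (adjusted p = 0.0496). So were those without miR-200a plus ELK3 replicate 1 (-0.58) or 2 (-0.32), which also called more of all tested genes. NQO1 overlaps the antisense gene AC092115.2 in its last exon.

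HMOX1, the inducible enzyme that breaks down heme (chr22:35380361-35394214, plus strand), was low in counts. The NC mimic libraries held 81 and 56 of its reads, the miR-200a libraries 127 and 124, and the plasmid-labelled libraries 66 and 51. Its CPM was 18 and 18.3, then 26.4 and 25.3, then 15.6 and 12. The miR-200a libraries were the highest of the 6. The log2 fold change of HMOX1 with miR-200a relative to the NC mimic was 0.51 (SE 0.22, 95% interval 0.01 to 1.00), and at an adjusted p of 0.529 it did not pass. HMOX1 fell to 0.535 of the miR-200a level in the plasmid-labelled libraries (log2 fold change -0.90, SE 0.23, adjusted p = 0.0291). This call was lost without NC mimic replicate 1 (adjusted p = 0.07) or 2 (0.0703) and without miR-200a replicate 1 (0.202) or 2 (0.19). The log2 fold change against the NC mimic was -0.39 (SE 0.24, adjusted p = 0.29).

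TXNRD1, the cytosolic thioredoxin reductase (chr12:104215779-104350305, plus strand), was 297 and 343 CPM with the NC mimic, 272 and 255 after miR-200a, and 242 and 154 in the plasmid-labelled libraries. The last 2 libraries were lowest and differed most from each other. With miR-200a relative to the NC mimic, the log2 fold change of TXNRD1 was -0.28 (SE 0.19, adjusted p = 0.722). With the spread taken from these 2 groups alone it was -0.26 (adjusted p = 0.0305), in a fit that called 983 genes. It was -0.26 without miR-200a plus ELK3 replicate 1 and -0.25 without replicate 2. The plasmid-labelled libraries stood at -0.41 against miR-200a (SE 0.19, adjusted p = 0.167). This value passed with no filter on low counts (-0.43, adjusted p = 0.0329). It was -0.78 without miR-200a plus ELK3 replicate 1 and -0.16 without replicate 2. TXNRD1 fell to 0.62 of the NC mimic level in the plasmid-labelled libraries (log2 fold change -0.69, SE 0.19, adjusted p = 0.0388). That call was lost without NC mimic replicate 1 (adjusted p = 0.151) or 2 (0.271) and without miR-200a replicate 1 (0.0958) or 2 (0.098). Against the NC mimic it was -1.04 without miR-200a plus ELK3 replicate 1 and -0.41 without replicate 2.

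The 2 subunits of glutamate-cysteine ligase, which makes the precursor of glutathione, did not pass in any comparison with all 6 libraries. GCLM, the modifier subunit (chr1:93885205-93909456, minus strand), was 77.9 and 82.9 CPM with the NC mimic, 69.8 and 83.9 after miR-200a, and 93.1 and 113 in the plasmid-labelled libraries. The last 2 libraries were highest, with log2 fold changes of 0.42 (SE 0.16, adjusted p = 0.104) against miR-200a and 0.36 (SE 0.16, adjusted p = 0.16) against the NC mimic. Without miR-200a plus ELK3 replicate 1 they were 0.55 and 0.50, and without replicate 2 they were 0.24 and 0.20. GCLC, the catalytic subunit (chr6:53497341-53616970, minus strand), was 22.7 and 19.9 CPM with the NC mimic, 14.3 and 16.1 after miR-200a, and 18.5 and 14.3 in the plasmid-labelled libraries. The NC mimic libraries were highest, and the other groups overlapped. The log2 fold change of GCLC with miR-200a relative to the NC mimic was -0.49 (SE 0.24, 95% interval -1.02 to 0.04, adjusted p = 0.583). The fitted signs of GCLM and GCLC against the NC mimic in the plasmid-labelled libraries were opposite, 0.36 and -0.38, and the difference between the genes was not tested.

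SRXN1, sulfiredoxin, which repairs over-oxidized peroxiredoxins (chr20:646615-653370, minus strand), was 216 and 214 CPM with the NC mimic, 196 and 185 after miR-200a, and 223 and 179 in the plasmid-labelled libraries. The last 2 libraries spanned the other 4. Its log2 fold changes were -0.17 (SE 0.14, adjusted p = 0.767) with miR-200a relative to the NC mimic, 0.08 (SE 0.14, adjusted p = 0.738) in the plasmid-labelled libraries against miR-200a and -0.10 (SE 0.14, adjusted p = 0.674) against the NC mimic. The sign of each of the last pair turned when 1 library was left out. The value against the NC mimic was -0.26 without miR-200a plus ELK3 replicate 1 and 0.04 without replicate 2. The last exon of SRXN1 overlaps AL121758.1 on the same strand, so the reads of these genes cannot be told apart here.

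Among the 6 targets, HMOX1 was called in 1 comparison and TXNRD1 in another, both lower, and the other 4 in none. This is 1 of 6 (16.7%) in each comparison of the plasmid-labelled libraries, near the 12.9% of all tested genes. SQSTM1, itself a target of NRF2, is not counted among the 6 and was called lower in both comparisons. The plot of adjusted p by setting shows how near each call lay to the threshold.

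**Figure D4:**
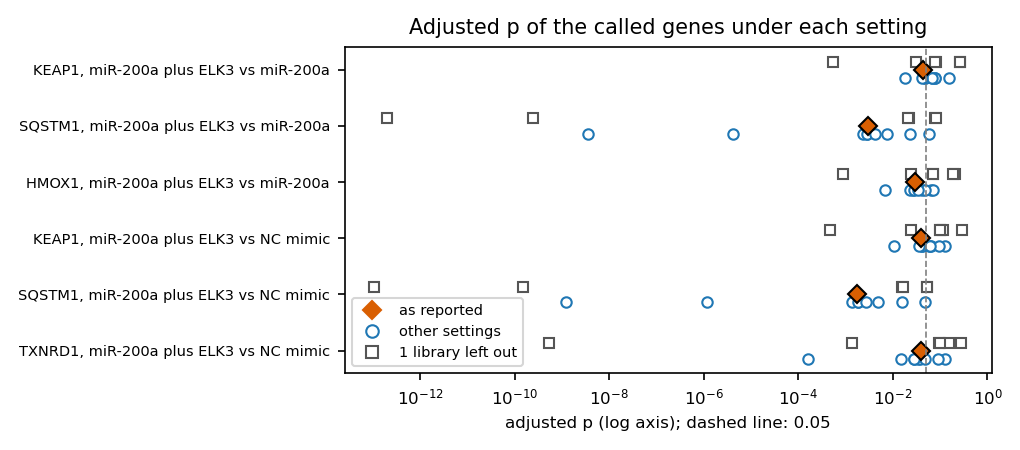
Adjusted p (log axis, dashed line at 0.05) of each called gene as reported (diamond), under other settings (circles) and with 1 library left out (squares). The diamonds of KEAP1, HMOX1 and TXNRD1 lie at 0.0291 to 0.043, close to the line, and those of SQSTM1 at 0.00293 and 0.00178.

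A further 77 genes of the pathway were grouped by role into 8 classes, and 73 had enough counts to be tested (GPX2, ABCC2, AKR1B10 and ALDH3A1 did not). In miR-200a against the NC mimic edgeR called 0 of 73, as did DESeq2 and limma. Of the 73, 11 had an unadjusted p under 0.05, a larger share than the 1169 of the 12650 tested genes. The difference in share was not tested, and the list was chosen with earlier results of these data known. The count of 0 became 2 with no filter on low counts and 10 with only the 2 compared groups. Those fits called 230 and 983 genes in all. In the plasmid-labelled libraries, 12 of 73 (16.4%) were called against miR-200a, 3 higher and 9 lower, where 12.9% of all tested genes were called. Against the NC mimic 12 of 73 (16.4%) were called, again 3 higher and 9 lower, beside 12.9%. The median log2 fold change of the 73 genes was 0.00, -0.09 and -0.14 in the 3 comparisons. The 2 counts of 12 became 0 and 2 with limma and 5 and 7 with only the 2 compared groups. With 1 library left out, the counts in all 3 comparisons depended on which library it was, and so did the counts over all tested genes.

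**Figure D5:**
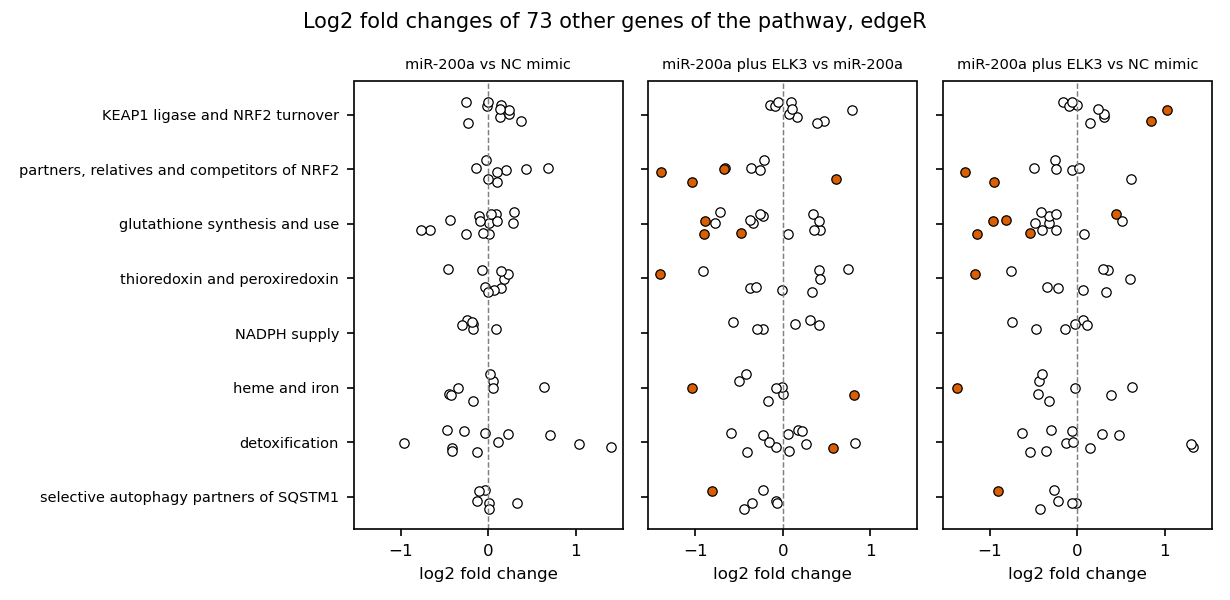
Log2 fold changes (edgeR) of the 73 tested genes of the pathway by role, 1 point per gene, filled where the adjusted p is under 0.05. No point is filled in miR-200a against the NC mimic, and 9 of 12 filled points lie below 0 in each of the other comparisons.

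In the class of the KEAP1 ligase and NRF2 turnover, 0 of 10 genes were called against miR-200a, beside 12.9% of all tested genes. Over the NC mimic, 2 of 10 rose in the plasmid-labelled libraries, where 6.92% of all tested genes rose. DPP3, a peptidase that competes with NRF2 for KEAP1, was 37.4 and 31.7 CPM with the NC mimic, 43.0 and 46.5 after miR-200a, and 61.3 and 62.7 in these libraries (log2 fold change against the NC mimic 0.84, adjusted p = 0.0121). PGAM5, a mitochondrial phosphatase that binds KEAP1, had a log2 fold change of 1.03 against the NC mimic (adjusted p = 0.0426). It was 15.1 and 22.5 CPM with the NC mimic, 21.8 and 22 after miR-200a, and 48.1 and 28.0 in the plasmid-labelled libraries. The lower of these last values was much nearer to the other groups. The most abundant genes of the class that were not called were the ubiquitin ligases TRIM25, at -0.06 in either comparison, and SYVN1, at 0.11 against miR-200a and 0.24 against the NC mimic.

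Of the 8 partners, relatives and competitors of NRF2, 3 fell and 1 rose against miR-200a (5.91% and 7.03% of all tested genes), and 2 fell against the NC mimic (5.95%). BACH1, a repressor that competes for the same DNA elements, was 43.6 and 43.4 CPM with the NC mimic, 49.2 and 44.2 after miR-200a, and 22.5 and 13.2 in the plasmid-labelled libraries. Its log2 fold change was -1.39 (adjusted p = 0.00745) against miR-200a and -1.29 (adjusted p = 0.00971) against the NC mimic. MAFF, a small Maf partner, was 130 and 127, then 146 and 128, then 72.0 and 60.9 CPM, with log2 fold changes of -1.04 (adjusted p = 0.00348) and -0.95 (adjusted p = 0.0047). So a repressor of the elements and a partner of NRF2 both fell. NFE2L3, a relative of NRF2, fell against miR-200a (-0.67, adjusted p = 0.0477), and the coactivator CREBBP rose (0.61, adjusted p = 0.0481). MAFG (-0.36) and NFE2L1 (-0.22) did not pass against miR-200a.

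In glutathione synthesis and use, 3 of 14 tested genes fell against miR-200a, beside 5.91% of all tested genes. Of the same 14, 4 fell and 1 rose against the NC mimic, beside 5.95% and 6.92%. The exporter of conjugates ABCC3 was 47.0 and 53.8 CPM with the NC mimic, 34.5 and 49.9 after miR-200a, and 23.7 and 21.6 in the plasmid-labelled libraries, with log2 fold changes of -0.90 (adjusted p = 0.0251) against miR-200a and -1.15 (adjusted p = 0.0102) against the NC mimic. The microsomal transferase MGST3 had -0.89 (adjusted p = 0.0278) and -0.97 (adjusted p = 0.0208). GPX4, which reduces lipid hydroperoxides, had -0.48 (adjusted p = 0.0466) and -0.54 (adjusted p = 0.031), and the transferase GSTA4 fell against the NC mimic (-0.82, adjusted p = 0.0256). SLC3A2, the heavy chain of the cystine transporter, rose against the NC mimic (0.44, adjusted p = 0.0489). SLC7A11, the other chain of that transporter, did not pass and had the opposite sign there (-0.25, adjusted p = 0.308). Its log2 fold change was -0.67 (adjusted p = 0.132) with miR-200a relative to the NC mimic. GSTP1 (0.41) and MGST1 (-0.26), the most abundant of those not called, did not pass against miR-200a.

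In the thioredoxin and peroxiredoxin class the gene that was called, 1 of 9 against each group where 12.9% of all tested genes were called, was SOD2, the mitochondrial superoxide dismutase, which is neither. SOD2 was 228 and 235 CPM with the NC mimic, 253 and 290 after miR-200a, and 125 and 81.1 in the plasmid-labelled libraries, with log2 fold changes of -1.40 (adjusted p = 0.00293) against miR-200a and -1.17 (adjusted p = 0.00532) against the NC mimic. PRDX1 (0.41, adjusted p = 0.0544) did not pass against miR-200a. TXN, thioredoxin itself, was 676 and 255 CPM in these libraries, which lay on either side of the other 4 (536 to 614). No gene of NADPH supply was called, 0 of 6, and TALDO1 (0.14) and TKT (-0.23) were the most abundant there.

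The heme and iron class held the gene of the list with the smallest p in both comparisons of the plasmid-labelled libraries, the ferritin heavy chain FTH1, which stores iron. FTH1 was 2982 and 3153 CPM with the NC mimic, 2386 and 2451 after miR-200a, and 1187 and 1162 in the plasmid-labelled libraries. The 3 groups did not overlap, and the share of all tested genes for which this holds was not counted. FTH1 fell against miR-200a (log2 fold change -1.04, SE 0.10, adjusted p = 0.000573) and against the NC mimic (-1.38, SE 0.10, adjusted p = 0.000125), and its value with miR-200a relative to the NC mimic was -0.34 (adjusted p = 0.274). TFRC, the transferrin receptor, which brings iron in, was 336 and 363 CPM with the NC mimic, 261 and 256 after miR-200a, and 521 and 387 in the plasmid-labelled libraries, and rose against miR-200a (0.81, adjusted p = 0.00959). The other 6 of 8 genes were not called against miR-200a, where the called share of all tested genes was 12.9%, FTL (-0.42, adjusted p = 0.0569) and BLVRB (-0.50, adjusted p = 0.143) among them. FTH1, FTL, TXN and PRDX1 have processed pseudogenes, and how reads that match several copies were counted was not given, so their values are uncertain.

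Of 12 tested detoxification genes, 1 was called (beside 12.9% of all tested genes), the carbonyl reductase CBR1, which rose against miR-200a (0.57, adjusted p = 0.0242). Its CPM was 139 and 119 with the NC mimic, 98.0 and 95.8 after miR-200a, and 145 and 142 in the plasmid-labelled libraries, so the miR-200a libraries were lowest. AKR1B1, with 457 and 486, then 334 and 346, then 380 and 385 CPM, had a log2 fold change of -0.47 with miR-200a relative to the NC mimic (adjusted p = 0.152), and NQO2 one of 0.11 (adjusted p = 0.938). Among 6 partners of SQSTM1 in selective autophagy, 1 was called, beside the same 12.9%. GABARAPL1, an ATG8-type protein that SQSTM1 binds, was 50.8 and 47.6, then 45.1 and 47.1, then 23.0 and 29.6 CPM. GABARAPL1 fell against miR-200a (-0.81, adjusted p = 0.0203) and the NC mimic (-0.91, adjusted p = 0.0135). TAX1BP1 (-0.07) and OPTN (-0.23) did not pass against miR-200a.

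The patterns most like those of KEAP1 and NQO1 were sought among 9928 other tested genes with a mean log2 CPM above 3, by the root mean square difference of log2 CPM over the 6 libraries after each gene was centred on its mean. Nearest to KEAP1 were BLCAP (0.05), MED27 (0.06), YIF1A (0.06), ANGEL2 (0.07) and TMEM97 (0.07), where KEAP1's own spread was 0.33 and the median difference over all candidates 0.38. YIF1A, for instance, was 67.9 and 59.1 CPM with the NC mimic, 63.1 and 65.2 after miR-200a, and 94.5 and 102 in the plasmid-labelled libraries. Nearest to NQO1, whose own spread was 0.20, were GBE1 (0.03) and CAPZB, CTNNA1, CDC42BPA and TEAD1 (0.04 each), beside a median of 0.32. GBE1 was 116 and 116, then 95.3 and 103, then 93.8 and 74.3 CPM. None of these 10 genes is on the list of the pathway. That list has 73 tested genes beside 9928 candidates, so this was likely in any case.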

How the data were processed

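The authors deposited 1 table per library, with the raw count of each gene symbol and no normalization, for 6 libraries. The submitters' processing notes name Bowtie2, edgeR and hg19 and the paper names ExDEGA, while versions, the counting program, its strand setting and the annotation were not given in the sources used here. Each library lists 25737 lines, and the 286 symbols on several lines were summed. Total counts were 3055915 to 4868004. Groups came from the sample labels.

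Counts were tested in R 4.3.3 with edgeR 4.0.16: TMM scaling, filterByExpr with a minimum count of 10 (12650 genes), and the quasi-likelihood test with all 3 groups in 1 model (3 residual degrees of freedom), adjusted by Benjamini-Hochberg. The code was tested on simulated data. Alternatives were RLE and upper-quartile scaling, DESeq2 1.42.0, limma 3.58.1 on quantile-normalized log2(count + 1), no filter, 10 counts in each library, only the 2 compared groups, a replicate block, a threshold of unadjusted p under 0.05 with a fold change over 1.5 and a mean log2 count over 3, and leaving out each library. A crossed block was added after seeing the data.

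The 9 genes and the list of 77 pathway genes were chosen with earlier results of these data known. Of the list, genes called in some comparison were named (at most the 4 with the smallest p in a class), with up to 2 of the most abundant that were not called. SLC3A2 and SLC7A11 fall outside this rule and were named after their values were seen. ELK3 and markers of the line were used to check the labels. Sequences came from RefSeq and GENCODE 29. Other assays of the study are not analysed here.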

Additional observations from a re-analysis of the deposited data

How the results depend on the processing

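With 2 libraries in each group, the counts of calls depended on the model. For the 9 genes, the count in miR-200a against the NC mimic was 0, 1 with only the 2 compared groups and 0 to 1 with 1 library left out. Against miR-200a, the 3 calls of the plasmid-labelled libraries became 0 with limma, 1 with only the 2 compared groups and 0 to 7 with 1 library left out (7 without miR-200a plus ELK3 replicate 1, 0 without either miR-200a replicate). Against the NC mimic, 3 became 1 with limma, 1 with only the 2 compared groups and 0 to 7 with 1 library left out (7 without miR-200a plus ELK3 replicate 1, 0 without either NC mimic replicate). A library left alone in its group was assumed to vary like the other groups.

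Over all tested genes, the 34 calls of miR-200a against the NC mimic became 88 with DESeq2, 4 with limma, 230 with no filter, 983 with only the 2 compared groups, 578 under the threshold of fold and unadjusted p, and 0 to 1010 with 1 library left out. The 1637 calls of miR-200a plus ELK3 against miR-200a became 107 with limma, 2490 with no filter, 542 with only the 2 compared groups and 31 to 4684 with 1 library left out. The 1629 against the NC mimic became 391, 2525, 587 and 96 to 4675 in the same order, and 2455 under the threshold of fold and unadjusted p. The share of calls that were higher, 54.3% and 53.8% in these 2 comparisons, was 41.4% and 42.9% with upper-quartile scaling and 23.4% and 42.2% with limma, and in miR-200a against the NC mimic it was 79.4%, and 100% with limma. The causes were not tested.

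Deviations of libraries with the same replicate number correlated little over genes, at r = -0.003, -0.036 and -0.108 in the 3 comparisons. Whether the numbers pair the samples by design was not given. With a replicate block, 13 genes were called in miR-200a against the NC mimic (22 with the numbers crossed), 1157 and 1170 in the others, and 0, 2 and 2 of the 9 genes. KEAP1 was the gene lost, with an adjusted p of 0.0679 against miR-200a and 0.0623 against the NC mimic.

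Signs turned for 4 of the 9 genes, none of them in a called comparison. With 1 library left out, log2 fold changes in miR-200a against the NC mimic ran from -0.14 (without NC mimic replicate 2) to 0.24 for KEAP1 and from -0.20 to 0.07 (without miR-200a replicate 1) for GCLM. Those of the plasmid-labelled libraries against miR-200a ran from -0.10 (without miR-200a plus ELK3 replicate 1) to 0.25 for GCLC and from -0.10 (without the same library) to 0.20 for SRXN1, which was -0.02 with limma. Against the NC mimic, SRXN1 ran from -0.26 to 0.04 (without miR-200a plus ELK3 replicate 2). Low counts limit HMOX1 and GCLC most, with 51 to 127 counts a library.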
